A study of Mus musculus with 12 samples.

Results

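Lcn2, Saa3, Saa4, Steap4, Cp and Serpina3n encode proteins that rise in inflamed tissue. They were followed over 60 days after stroke in cortical cells sorted and labelled as astrocytes, which also held markers of other cell types. These 6 genes, of 15774 in the counts, were chosen by symbol for their levels over the 6 groups, as genes high in an early wave (days 1 and 3) and again in a late wave (days 21 and 60), with day 7 between. Their levels and their differences against day 7 and against sham are therefore described without a test, and the comparisons within a wave were tested. The working name of a 2-wave set held for Lcn2 and Saa3. Serpina3n was above day 7 in the early wave, and Saa4, Steap4 and Cp were above it in the late wave, with early levels at or below those of day 7.

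All groups were wild-type C57BL/6J mice, and the cells labelled astrocytes were isolated from cerebral cortex by fluorescence-activated sorting. The sham group had a lesion of the skull surface and no occlusion. The other groups were taken 1, 3, 7, 21 and 60 days after permanent ligation of the distal middle cerebral artery, which was combined with 7 min of occlusion of both common carotid arteries. The sort marker, the ages of the mice and the number of mice in a library are not stated. Each group had 2 libraries of total RNA, and since these are not said to come from separate animals, p-values measure the spread between these libraries only.

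Acute-phase proteins are secreted during inflammation, classically by the liver, and cytokines such as interleukin 6 and interleukin 1 switch on their genes through the transcription factors STAT3, C/EBP and NF-kB. Several are also made within injured brain, where reactive astrocytes are a known source of lipocalin 2 and serpin A3N. Lipocalin 2 withholds iron by binding siderophores, STEAP4 reduces iron and copper, ceruloplasmin oxidises iron so that it can leave the cell, the serum amyloid A proteins bind lipoproteins and innate receptors, and serpin A3N inhibits serine proteases.

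Promoters are shown for the members that stand for each pattern, Lcn2 and Saa3 (both waves), Steap4 (late wave) and Serpina3n (early wave). The sequences are the 250 bases before the annotated start in RefSeq on GRCm38.p6, written 5′ to 3′ on the gene's strand. Capitals mark matches, on either strand, to the letters TTCNNNGAA (STAT), TTNNGNAA (C/EBP) and, for NF-kB, GGG and TTCC with any 3 bases between them. The Lcn2 window is chr2:32387740-32387989, the Saa3 window is chr7:46715677-46715926, the Steap4 window is chr5:7960222-7960471 and the Serpina3n window is chr12:104406458-104406707.
Lcn2: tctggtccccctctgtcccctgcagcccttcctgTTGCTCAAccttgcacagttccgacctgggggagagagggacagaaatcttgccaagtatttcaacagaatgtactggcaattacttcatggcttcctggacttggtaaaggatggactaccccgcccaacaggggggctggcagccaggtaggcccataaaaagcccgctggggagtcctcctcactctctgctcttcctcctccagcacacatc
Saa3: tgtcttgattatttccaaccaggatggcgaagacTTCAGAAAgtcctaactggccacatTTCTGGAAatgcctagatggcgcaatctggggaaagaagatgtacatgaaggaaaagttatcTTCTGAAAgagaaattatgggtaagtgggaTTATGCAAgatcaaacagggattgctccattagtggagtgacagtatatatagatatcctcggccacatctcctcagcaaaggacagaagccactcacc
Steap4: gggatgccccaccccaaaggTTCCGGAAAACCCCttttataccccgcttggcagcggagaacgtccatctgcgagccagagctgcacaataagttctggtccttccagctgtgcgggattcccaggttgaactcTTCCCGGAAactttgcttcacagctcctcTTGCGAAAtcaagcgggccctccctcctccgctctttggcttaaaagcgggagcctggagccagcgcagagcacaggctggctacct
Serpina3n: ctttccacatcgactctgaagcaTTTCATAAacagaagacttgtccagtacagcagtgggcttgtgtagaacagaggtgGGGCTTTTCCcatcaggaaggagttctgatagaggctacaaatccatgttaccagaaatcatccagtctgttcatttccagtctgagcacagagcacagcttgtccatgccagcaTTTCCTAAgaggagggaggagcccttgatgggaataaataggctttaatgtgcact

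The search covered these bases and the 50 after the start, in 32851 mouse promoters. The C/EBP letters stood in 40.7% of all promoters, the NF-kB letters in 5.56% and the STAT letters in 8.3%. Lcn2 held 1 C/EBP match, which begins 216 bases before the start. Saa3 held 4 C/EBP matches, beginning 216, 191, 129 and 99 bases before its start. Steap4 held a STAT match at 116 bases, C/EBP matches at 230 and 87 bases, and an NF-kB match at 226 bases that overlaps the C/EBP match at 230. Serpina3n held C/EBP matches at 227 and 56 bases and an NF-kB match at 171 bases. Saa4 held 2 C/EBP matches, and each of the 2 annotated promoters of Cp held 1. The C/EBP letters were thus in all 6 genes, the NF-kB letters in Steap4 and Serpina3n, and the STAT letters in Steap4 alone. A match is a description of letters and not evidence of binding.

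On mm10 (GENCODE vM21) Lcn2 spans chr2:32384633-32388252 on the minus strand and Steap4 spans chr5:7960457-7982213 on the plus strand. Cp spans chr3:19957054-20009145 on the plus strand, where its exons overlap those of Hps3 on the opposite strand. The strand setting of the counting is not stated, so reads of this overlap may be shared. Saa3 (chr7:46711998-46715700) and Saa4 (chr7:46727998-46732603) are neighbours on the minus strand, 12297 bases apart, and Saa1 lies 7893 bases beyond Saa4. Serpina3n spans chr12:104406729-104414329 on the plus strand, in a cluster with near-identical paralogs, the nearest being Serpina3m at 12471 bases. All 6 are protein-coding.

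Replicate 1 of each group held 13006008 to 16575045 counts and replicate 2 held 97056596 to 156128920. Levels are given in CPM, counts scaled to library totals with TMM factors. Markers set the label of the sort beside other cell types. The 13 astrocyte markers, led by Aldoc and Slc1a2, summed to 7546 to 8789 CPM in sham, 3491 to 12499 CPM in the early wave, 1559 to 2159 CPM at day 7 and 2816 to 3280 CPM in the late wave. The 12 fibroblast markers, led by Col3a1 and Col1a1, summed to 77.5 to 83.5 CPM in sham, 1712 to 22553 CPM in the early wave, 90954 to 290454 CPM at day 7 and 17287 to 51124 CPM in the late wave. Day 7 thus had the lowest astrocyte and the highest fibroblast signal of the 6 groups. The part of this shift in any difference against day 7 was not tested. In such bulk libraries a smaller number of cells of one type and less RNA per cell cannot be told apart.

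**Figure D1:**
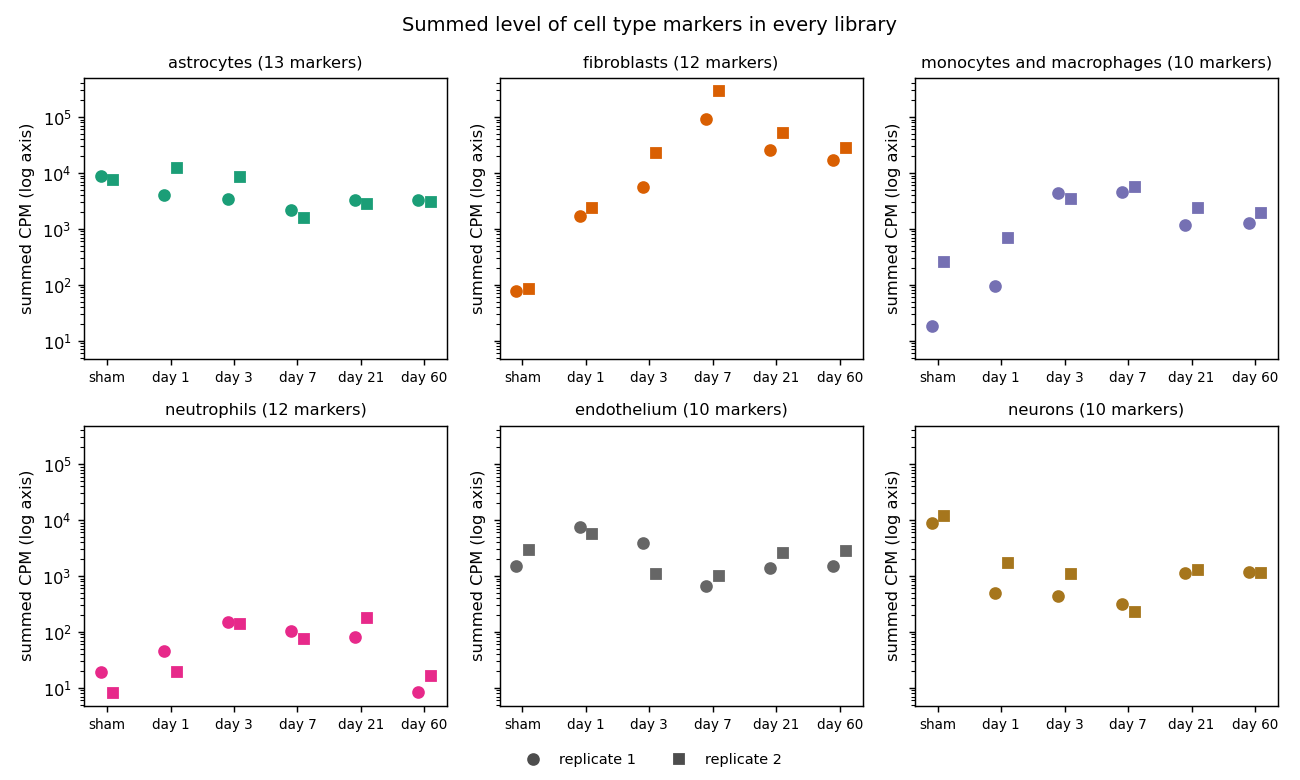
Summed CPM (log axis) of marker genes of 6 cell types in each library, with circles for replicate 1 and squares for replicate 2. Fibroblast markers peak at day 7, at 90954 to 290454 CPM, and astrocyte markers are lowest there, at 1559 to 2159 CPM.

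Lcn2, the secreted siderophore-binding lipocalin, was near its sham level at day 7 and far above it in both waves. Its level was 4.30 and 5.51 CPM in the sham libraries, 284 and 331 CPM at day 1, 45.4 and 90.7 CPM at day 3, 4.97 and 7.36 CPM at day 7, 1344 and 2113 CPM at day 21, and 1354 and 1498 CPM at day 60. The day 7 and sham ranges overlap, as do those of days 60 and 21, and no other neighbours in the order of levels overlap. Against sham the log2 differences were 5.97 ± 0.52 (day 1), 3.79 ± 0.47 (day 3), 0.33 ± 0.43 (day 7), 8.46 ± 0.59 (day 21) and 8.18 ± 0.58 (day 60) (SE from the edgeR fit, n = 2 per group). Against sham, Lcn2 at day 3 was 3.12 log2 units higher without day 3 replicate 2. Against day 7 the early wave was 4.55 ± 0.47 log2 units higher and the late wave 7.99 ± 0.56, a 254-fold difference for the late wave. The late peak was thus above the early one, by 3.44 ± 0.33 log2 units.

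Neutrophils also carry much lipocalin 2, so their markers stand beside these levels. The 12 neutrophil markers, led by S100a8 and S100a9, summed to 8.13 to 19.3 CPM in sham, 18.9 to 150 CPM in the early wave, 74.3 to 105 CPM at day 7 and 8.42 to 179 CPM in the late wave. At day 21 the sums were 82.8 and 179 CPM, with Lcn2 at 1344 and 2113 CPM. Elane, with a mean of 40.2 CPM at day 21, lay almost wholly in replicate 2 and made up much of its sum. At day 60 the sums were 8.42 and 16.6 CPM, within the sham range, with Lcn2 at 1354 and 1498 CPM. Of 11 neutrophil markers tested, edgeR called 1, 5, 2, 5 and 0 higher than sham on days 1, 3, 7, 21 and 60. Of all genes 16.7% to 23.2% were called higher at these times, and 1 marker was called lower at day 7. Ngp and Camp, neutrophil granule genes, were at 0 counts in both day 60 libraries. Both were also at 0 counts in day 7 replicate 2, Ngp in sham replicate 2 and Camp in sham replicate 1. The part of neutrophils in the Lcn2 levels was not tested.

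Steap4, the metalloreductase of the STEAP family, was higher at day 7 than in the early wave and higher again in the late wave. It was at 1.25 and 0.240 CPM in sham, 23.0 and 10.8 CPM at day 1, 13.5 and 17.1 CPM at day 3, 61.1 and 40.0 CPM at day 7, 1057 and 550 CPM at day 21, and 383 and 516 CPM at day 60. Only the ranges of days 1 and 3 overlap. Against day 7 the early wave was -1.65 ± 0.55 log2 units and the late wave 3.57 ± 0.69 log2 units, or 11.9-fold. Against sham, Steap4 differed by 4.63 ± 0.78 (day 1), 4.49 ± 0.78 (day 3), 6.21 ± 0.84 (day 7), 10.20 ± 0.98 (day 21) and 9.36 ± 0.95 (day 60). These rest on a low sham level that differed between the libraries. Without sham replicate 1 the Steap4 difference at day 21 was 11.69, 9.32 with sham replicate 2 left out and 9.53 with replicate 1 of day 21 left out. The day 1 value was 3.94 once day 1 replicate 1 was left out.

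Cp, ceruloplasmin, the copper ferroxidase that astrocytes carry on their surface, was above sham in every stroke library and highest in the late wave. Its level was 31.7 and 49.2 CPM in sham, 243 and 205 CPM at day 1, 201 and 512 CPM at day 3, 474 and 714 CPM at day 7, 1929 and 2212 CPM at day 21, and 1250 and 2728 CPM at day 60. Sham lies below all later libraries, the ranges of days 1, 3 and 7 run into each other, and both late times lie above day 7. Against day 7 the early wave was -1.07 ± 0.44 log2 units and the late wave 1.77 ± 0.50, or 3.42-fold. The difference against sham was 2.47 ± 0.56 (day 1), 3.14 ± 0.57 (day 3), 3.88 ± 0.59 (day 7), 5.68 ± 0.65 (day 21) and 5.62 ± 0.64 (day 60). Day 3 replicate 2 carries much of its own value, since the difference at day 3 is 2.23 for Cp without it, and the difference at day 60 is 4.95 without day 60 replicate 2.

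Saa3, the serum amyloid A protein that inflamed tissues other than liver make in mice, shared the late peak of Lcn2 but had a smaller early one. It was at 0.179 and 1.15 CPM in sham, 4.45 and 5.84 CPM at day 1, 22.2 and 19.8 CPM at day 3, 2.35 and 3.22 CPM at day 7, 414 and 666 CPM at day 21, and 309 and 242 CPM at day 60. No 2 groups overlap, and the order runs sham, day 7, day 1, day 3, day 60, day 21. Against day 7 the early wave was 1.89 ± 0.55 log2 units higher, or 3.71-fold, and the late wave 7.10 ± 0.73 log2 units higher, or 137-fold. Against sham the difference of Saa3 was 2.82 ± 0.63 (day 1), 4.84 ± 0.68 (day 3), 1.94 ± 0.61 (day 7), 9.52 ± 0.83 (day 21) and 8.55 ± 0.80 (day 60). At day 7 it was 1.28 without sham replicate 1 and 3.95 without sham replicate 2, and at day 21 it was 8.87 and 11.54 without them. Unlike Lcn2, Saa3 had both day 7 libraries above both sham libraries.

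Saa4, the constitutive serum amyloid A protein of plasma lipoproteins, was almost silent until the late wave. No count was seen in the 2 sham and 2 day 1 libraries, and the raw counts were 5 and 10 (day 3), 4 and 61 (day 7), 425 and 13749 (day 21), and 116 and 5148 (day 60). This corresponds to 0.316 and 0.0913 CPM at day 3, 0.269 and 0.567 CPM at day 7, 23.8 and 123 CPM at day 21, and 6.64 and 37.3 CPM at day 60. With 3 counts per sham library as the floor, the level was at least 706-fold higher than sham at day 21, 211-fold at day 60, 4.02-fold at day 7 and 1.96-fold at day 3. The late wave was 6.47 ± 1.20 log2 units above day 7. Leaving out replicate 2 of day 7, day 21 or day 60 gave 7.22, 5.69 or 5.61 for Saa4. Replicate 2 was 5.17 times replicate 1 at day 21 and 5.62 times at day 60, so the size of the late level is uncertain, while all 4 late libraries lie above both day 7 libraries.

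Serpina3n, the serine protease inhibitor often used to mark reactive astrocytes, was high in the early wave and lower from day 7 on. Its level was 4.54 and 7.34 CPM in sham, 66.3 and 113 CPM at day 1, 28.7 and 117 CPM at day 3, 8.13 and 5.56 CPM at day 7, 14.6 and 18.6 CPM at day 21, and 2.86 and 7.93 CPM at day 60. Sham, day 7 and day 60 overlap, day 21 lies just above them, and days 1 and 3 overlap at the top. Against day 7 the early wave was 3.57 ± 0.69 log2 units higher, or 11.9-fold, and the late wave 0.48 ± 0.58 log2 units higher. The early value was 2.91 for Serpina3n without day 3 replicate 2. Against sham the differences were 3.91 ± 0.73 (day 1), 3.61 ± 0.72 (day 3), 0.19 ± 0.66 (day 7), 1.47 ± 0.67 (day 21) and -0.13 ± 0.66 (day 60). The day 3 value was 2.19 without replicate 2 and 4.25 without replicate 1 of that day, and the day 60 value was -1.06 once replicate 2 of day 60 was left out.

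The Serpina3 paralogs qualify these values, because reads of near-identical copies can be split in ways that the sources used here do not state. Serpina3m was at 0.945 and 122 CPM at day 1, at 0 and 95.5 CPM at day 3, and at 0 and 3.62 CPM in sham. Serpina3i was at 1.39 and 119 CPM at day 1, at 0 and 89.2 CPM at day 3, and at 0 and 3.36 CPM in sham. In both genes replicate 2 holds nearly all the signal of the early wave, and replicate 1 almost none. Serpina3f had 1.56 and 41.4 CPM at day 1, against 0.239 and 0.240 CPM in sham, and Serpina3c had 0 and 23.4 CPM at day 1. Of the paralogs, Serpina3g was above sham at all 5 times, by 4.10 to 4.85 log2 units with edgeR adjusted p of 0.0119 to 0.0280. For Serpina3g each of these calls was lost in at least 1 of 12 fits that leave out 1 library, with an adjusted p of 0.368 at day 1 without day 1 replicate 2. At 30.6 and 35.5 CPM at day 7, against 0.717 and 1.66 CPM in sham, Serpina3g was not at its sham level at day 7.

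**Figure D2:**
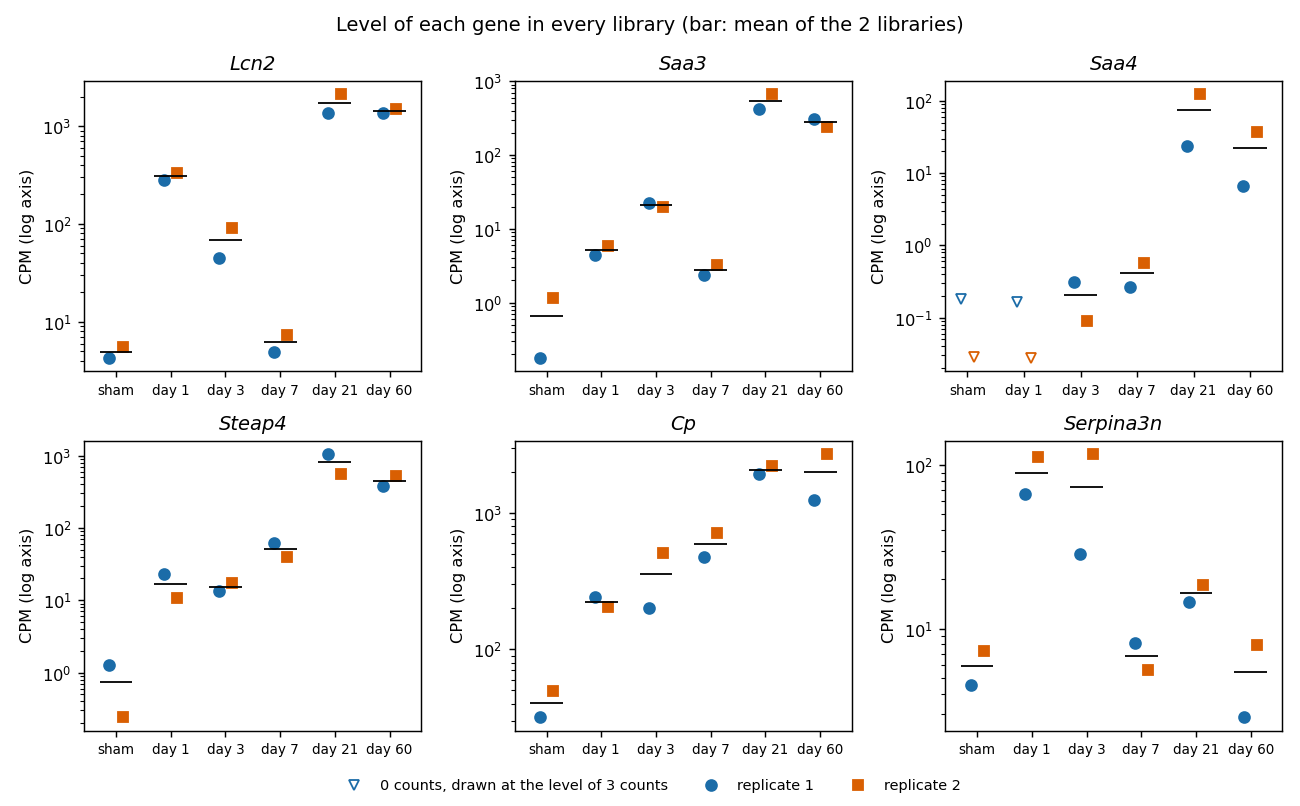
CPM (log axis) of the 6 members in each of the 12 libraries, from sham to day 60, with circles for replicate 1, squares for replicate 2, bars at the mean, and open triangles for 0 counts drawn at the level of 3 counts. Lcn2 drops to 4.97 and 7.36 CPM at day 7 between its 2 peaks, Serpina3n peaks at days 1 and 3, and Steap4 and Cp are higher in the late wave than at day 7.

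Levels were compared between members per length, as mean CPM per kb of the union of all annotated exons. This union was 2623 bases for Lcn2, 2606 for Saa3, 9566 for Cp, 3155 for Steap4 and 2064 for Serpina3n. It can be longer than the transcripts present, to an extent that was not measured and may differ between members. The order of members therefore depends on the annotation. On the scale of this union Cp led in sham at 4.23, followed by Serpina3n at 2.88 and Lcn2 at 1.87. At day 1 Lcn2 led at 117, with Serpina3n at 43.4 and Cp at 23.4. At day 7 Cp led at 62.1 and Steap4 followed at 16.0, with Lcn2 at 2.35. At day 21 Lcn2 led at 659, with Steap4 at 255, Cp at 216 and Saa3 at 207. At day 60 Lcn2 stood at 544, Cp at 208, Steap4 at 142 and Saa3 at 106. At day 3 Cp stood at 37.2, Serpina3n at 35.3 and Lcn2 at 25.9. On this scale Lcn2 was thus the leading member by mean at days 1, 21 and 60, and Cp in sham and at days 3 and 7.

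Set side by side, 3 of 6 members (Lcn2, Saa3 and Serpina3n) had all 4 early libraries above both day 7 libraries, as had 16.1% of all genes tested. In the late wave 5 of 6 did, every member but Serpina3n, against 16.6% of all genes. Only Lcn2 and Saa3 did so in both waves, against 6.4% of all genes. Since the members were chosen on these differences, the shares are given as background and nothing is read from them. Saa3, Steap4 and Cp had all 10 stroke libraries above both sham libraries, as had 18.6% of all genes. The median log2 difference of all genes was 0.04 in the early wave and -0.02 in the late wave.

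**Figure D3:**
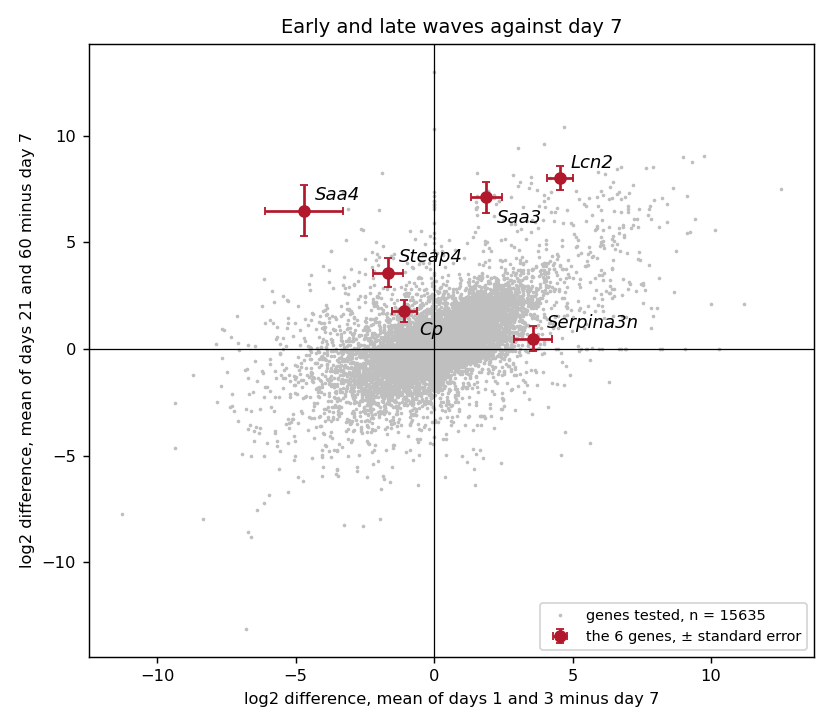
Log2 difference of the early wave from day 7 (horizontal) and of the late wave from day 7 (vertical) for 15635 genes in grey and the 6 members in red with SE bars. Lcn2 lies at 4.55 and 7.99 and Saa3 at 1.89 and 7.10, while Serpina3n is high on the horizontal axis alone and Saa4, Steap4 and Cp are high on the vertical axis with negative early differences.

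Within the early wave, days 3 and 1 were compared in a test, since the rule did not use this difference. Lcn2 was lower at day 3, at 45.4 and 90.7 CPM, against 284 and 331 CPM at day 1. The log2 difference was -2.18 ± 0.44, with an edgeR quasi-likelihood adjusted p of 0.0255. In edgeR Lcn2 was the only member to pass, in a comparison that called 3.57% of all genes. The call was lost when day 1 replicate 1 (adjusted p = 0.0660), day 1 replicate 2 (0.0803) or day 3 replicate 1 (0.105) was left out of the edgeR fit. Saa3 moved the other way, with 22.2 and 19.8 CPM at day 3, against 4.45 and 5.84 CPM at day 1, a log2 difference of 2.02 ± 0.60. Its edgeR adjusted p was 0.108, and 0.0219 with the replicate number as a block, and in DESeq2 Saa3 passed with an adjusted p of 0.00257. Without sham replicate 1 or sham replicate 2 the edgeR value for Saa3 was 0.0250 or 0.0236.

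The other members did not pass between days 3 and 1 in edgeR. Steap4 differed by -0.14 ± 0.66 (edgeR adjusted p = 0.964), Cp by 0.67 ± 0.53 (0.624) and Serpina3n by -0.29 ± 0.65 (0.902) log2 units. Once a library was left out some of these turned: Serpina3n gave -1.64 (day 3 replicate 2 left out) or 0.42 (day 3 replicate 1 left out), Cp gave -0.14 (day 3 replicate 2 left out) and Steap4 gave 0.49 (day 1 replicate 1 left out). Saa4 was at least 2.09-fold higher at day 3 than at day 1, where no count was seen, with an adjusted p of 0.251 in edgeR and 0.0294 in DESeq2 for Saa4.

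Within the late wave no member passed between days 60 and 21, and edgeR called no gene at all, with 847 genes at an unadjusted p under 0.05. DESeq2 called 115 genes and the fit with the replicate block 21. The log2 difference was -0.28 ± 0.42 for Lcn2 (edgeR adjusted p = 0.977), -0.97 ± 0.58 for Saa3 (0.940), -0.84 ± 0.66 for Steap4 (0.950) and -0.06 ± 0.53 for Cp (1.0). Saa4 differed by -1.74 ± 0.98 log2 units (edgeR adjusted p = 0.939), and by -3.47 or -0.11 with replicate 2 of day 60 or of day 21 left out. Serpina3n had the smallest p of the members, with 2.86 and 7.93 CPM at day 60, against 14.6 and 18.6 CPM at day 21. Its log2 difference was -1.60 ± 0.67, with an unadjusted edgeR p of 0.0374 and an adjusted p of 0.920. Without day 60 replicate 2 this difference was -2.53 for Serpina3n and -0.73 for Cp. For Saa3, Steap4 and Serpina3n both day 60 libraries lay below both day 21 libraries. The share of all genes with this order was not counted, so nothing is read from it.

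Across all genes 151 of 15635, or 0.966%, were called higher than day 7 in both waves. Of these 151 genes 133 were called lower at day 7 than in sham, so their pattern is a dip at day 7 below sham. Only 18 were above sham at day 1 or 3 and again at day 21 or 60. Of these, 11 were not called against sham at day 7, namely Lcn2, which was chosen on these differences, and Adm, Coch, Cxcl5, Entpd3, Fas, Il1r2, Nqo1, Ptgds, Ptx3 and Slpi. That group was defined after its values were seen. Without day 7 replicate 2 the count of 151 fell to 4, and it reached 393 in the fits that leave out another library.

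Among the 151 called genes, the 8 non-members with the largest smaller difference of the pair were Csf3, Slpi, Prok2, Cxcl5, Bai3, Etnppl, Lamp5 and Il1r2. Genes that did not pass, or stayed under 10 CPM in every group, are left out of this order whatever their difference. Csf3, the cytokine that drives neutrophil production, had means of 0 CPM in sham, 85.1 CPM at day 1, 7.40 CPM at day 3, 0.268 CPM at day 7, 9.74 CPM at day 21 and 7.64 CPM at day 60. Cxcl5, a chemokine that draws neutrophils, had means of 0.345 CPM in sham, 4.67 and 4.94 CPM at days 1 and 3, 0.277 CPM at day 7, and 422 and 134 CPM at days 21 and 60. Cxcl5 was 3.98 log2 units above day 7 in the early wave and 9.62 in the late wave, and Csf3 was 6.42 and 4.88 above it. Slpi, a protease inhibitor, was 4.46 above day 7 early and 4.34 late, Prok2, a secreted ligand of prokineticin receptors, 4.34 and 5.99, and Il1r2, the decoy receptor of interleukin 1, 4.02 and 3.27. Etnppl, Lamp5 and Bai3 were highest in sham.

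By overall shape over the 12 libraries, the non-member genes nearest to Lcn2 were Prok2, Cxcl5 and Il31ra. Likeness was the mean absolute difference of log2 CPM centred on each gene's own mean, among 11428 genes, and a smaller value is nearer. It was 0.98 for Prok2, 1.10 for Cxcl5 and 1.41 for Il31ra, against 3.12 for the median gene. Saa3 itself stood at 1.36 from Lcn2, nearer than Il31ra, and A2m took the place of Il31ra with each replicate number centred on its own or with another prior count. Prok2 had 44.2 and 31.8 CPM at day 21, against 0.336 and 0.316 CPM at day 7.

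Saa3 was nearest to Hp (1.11), Cxcl5 (1.14) and Cyp2f2 (1.19), and Saa4 to Gpx3 (0.96), Htra4 (1.13) and Hgd (1.20). Gpx3, a secreted glutathione peroxidase, climbed through mean levels of 10.6 CPM in sham, 12.3 CPM at day 1, 136 CPM at day 3, 192 CPM at day 7, 4397 CPM at day 21 and 4533 CPM at day 60. Steap4 was nearest to Serping1 (0.72), Cd74 (0.85) and Saa1 (0.93). Cp was nearest to Slc13a4 (0.40), Tlcd2 (0.42) and Exoc3l4 (0.45). Serpina3n was nearest to Rps6ka3 (0.69), Gimap4 (0.70) and Flt4 (0.74). With each replicate number centred on its own, 1 of the 3 nearest genes of Steap4, 1 of those of Cp and 0 of those of Serpina3n stayed the same.

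Among 27 other acute-phase and host-defence genes tested, 10 to 15 were called higher than sham at each time. edgeR called 11 higher on day 1, 14 on day 3, 10 on day 7, 14 on day 21 and 15 on day 60, where 16.7%, 18%, 23.2%, 17.8% and 16.8% of all genes were called higher. The median log2 difference of the list was 3.22, 3.87, 3.02, 4.98 and 4.49 at these times, and that of all genes lay between 0.01 and 0.16. Agt, angiotensinogen, was the 1 gene called lower, at day 3. Without sham replicate 2 fewer of the list were called higher at days 1 and 3. The replicate block called 17 higher at day 1, 17 at day 3 and 16 at day 60, where it called 3665, 3869 and 3532 of 15635 genes higher.

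Against day 7 the late wave had 6 of these 27 genes called higher and 0 lower, where 1.71% of all genes were called higher and 2.94% lower. The 6 were Saa1, Hp, Ptx3, Serping1, Cfb and C3. The early wave had 2 called higher, Ptx3 and Lrg1, and 5 called lower, namely Lbp, Serpina1b, Serping1, Agt and C3, where 7.19% of all genes were called higher and 10.3% lower. The median log2 difference from day 7 was 1.97 late and 0.27 early. Without day 7 replicate 1 no gene of the list was called higher in either wave, and without day 7 replicate 2 only 1 was in the late wave. The replicate block called 10 higher in the late wave and 4 in the early wave, where it called 848 and 2133 of 15635 genes higher.

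C3, the central complement component, had the largest late difference of the list, with 3611 and 6280 CPM at day 21 and 3005 and 7265 CPM at day 60, against 26.0 and 38.4 CPM at day 7. C3 was 7.29 ± 1.14 log2 units higher in the late wave (edgeR adjusted p = 0.00900, and 0.111 without day 7 replicate 1) and -3.30 ± 0.75 in the early wave (0.0157, and 0.0928 without day 7 replicate 2). Hp, haptoglobin, which binds free hemoglobin, was 4.59 ± 0.58 higher in the late wave (edgeR adjusted p = 0.00395, and 0.0618 without day 7 replicate 1). Its levels were 175 and 191 CPM at day 21 and 222 and 105 CPM at day 60, against 7.12 and 7.27 CPM at day 7. C4b, which shares much sequence with a paralog, reached 1166 and 27203 CPM at day 21, so its level depended on the replicate. Serpina1b, an antitrypsin gene, was 6.15 log2 units below day 7 in the early wave by the fit, but held at most a mean of 4.85 CPM in any group.

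Saa1 and Saa2, the liver-type paralogs of Saa3 and Saa4, stayed low. Saa1 was at 15.6 and 43.4 CPM at day 21 and 13.1 and 12.4 CPM at day 60, against 0.605 and 1.66 CPM at day 7. Saa1 was 4.03 ± 0.83 log2 units higher in the late wave than at day 7 (edgeR adjusted p = 0.0270, and 0.197 without day 7 replicate 1). Saa2 had no count in sham and was at least 81.3-fold above it at day 21 and 35.3-fold at day 60, and its late difference from day 7 did not pass (3.35 ± 1.04, edgeR adjusted p = 0.108). The early differences of Saa1 (-0.20 ± 0.69) and Saa2 (0.29 ± 0.91) did not pass either, beside 1.89 ± 0.55 for Saa3.

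Lrg1 and Ptx3, singled out after their values were seen, differed from day 7 in the early wave. Lrg1, a secreted leucine-rich glycoprotein, was at 646 and 363 CPM at day 1, and at 697 and 94.7 CPM at day 3. Its day 3 level thus differed widely between the libraries. It was at 54.3 and 38.2 CPM at day 7, with means of 55.1 and 35.7 CPM at days 21 and 60. Its late wave was 3.33 log2 units below its early wave (edgeR adjusted p = 0.00543), as Serpina3n was by 3.09. Its early difference from day 7 was 3.27 ± 0.81 log2 units (edgeR adjusted p = 0.0216, and 0.156 without day 7 replicate 2), and its late difference was -0.06 ± 0.68. Ptx3, a pentraxin of innate defence made outside the liver, was higher in both waves, by 2.16 ± 0.61 early (edgeR adjusted p = 0.0365) and 3.04 ± 0.64 late (0.0289). The Ptx3 calls were lost in 6 and 5 of the 12 fits that leave out 1 library, with adjusted p up to 0.209 and 0.229 without day 7 replicate 2.

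**Figure D4:**
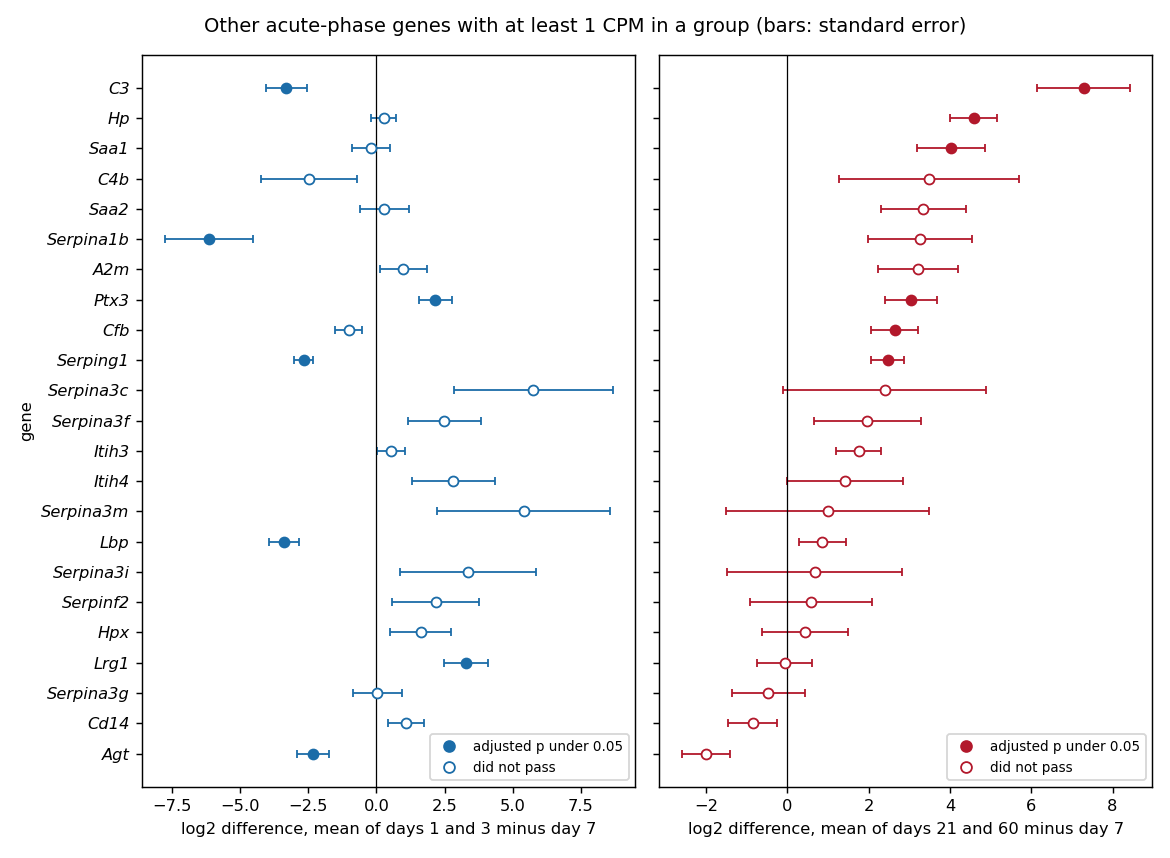
Log2 difference from day 7 of 23 other acute-phase genes with at least 1 CPM in a group, early wave on the left and late wave on the right, with filled points for an edgeR adjusted p under 0.05. Lrg1 and Ptx3 are the filled points above 0 on the left, and C3, Hp, Saa1, Ptx3, Cfb and Serping1 those above 0 on the right.

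Of 29 genes of iron and copper handling tested, edgeR called 11, 12, 16, 14 and 11 higher than sham on days 1, 3, 7, 21 and 60, where 16.7%, 18%, 23.2%, 17.8% and 16.8% of all genes were, so the count was highest at day 7 in the list as over all genes. It called 2, 1, 3, 0 and 2 lower, where 13.9%, 14.2%, 19.8%, 15.4% and 14.8% of all genes were. Without sham replicate 1 the counts called higher were 6 on days 1 and 3 and 11 on day 7. Against day 7 only Trf, transferrin, was called higher in the late wave, where 1.71% of all genes were, by 1.94 ± 0.44 log2 units (edgeR adjusted p = 0.0364, lost in 8 of 12 fits that leave out 1 library). In the early wave 3 were higher than day 7 (Tfrc, Fth1 and Hmox1) and 5 lower (Tfr2, Slc39a14, Steap2, Steap3 and Cybrd1), where 7.19% and 10.3% of all genes were. The median difference from day 7 was -0.43 early and -0.33 late. The replicate block called 8 lower early, and 4 higher and 4 lower late. Of 15635 genes it called 2566 lower early, and 848 higher and 1046 lower late. Without day 7 replicate 1 only 1 was called higher in the early wave.

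Of the Steap4 paralogs, Steap3, the endosomal ferrireductase of the transferrin cycle, climbed up to day 7 and stayed near that level. Steap3 was at 2.63 and 3.16 CPM in sham, 16.5 and 21.1 CPM at day 1, 59.7 and 149 CPM at day 3, 609 and 492 CPM at day 7, 736 and 565 CPM at day 21, and 494 and 325 CPM at day 60. It was 3.64 ± 0.38 log2 units below day 7 in the early wave (edgeR adjusted p = 0.000467) and did not pass in the late wave (-0.09 ± 0.38), where Steap4 was 3.57 higher. Steap1 was above sham by 4.26 at day 1 and 4.05 at day 21 (edgeR adjusted p = 0.00116 and 0.000546), and Steap2 by 3.25 at day 7 and 3.07 at day 21 (0.00135 and 0.00291). Heph, the membrane-bound paralog of ceruloplasmin, was above sham by 3.03 ± 0.66 log2 units at day 21 and 3.57 ± 0.68 at day 60 (edgeR adjusted p = 0.00693 and 0.00405). Without sham replicate 1 the adjusted p of Heph at day 21 was 0.0603.

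Slc22a17, a receptor of lipocalin 2, was at 301 and 282 CPM in sham, 53.4 and 121 CPM at day 1, 57.8 and 61.8 CPM at day 3, 92.5 and 91.7 CPM at day 7, 170 and 179 CPM at day 21, and 90.2 and 105 CPM at day 60. Slc22a17 fell against sham by 1.74, 2.29, 1.66 and 1.58 log2 units on days 1, 3, 7 and 60 (edgeR adjusted p = 0.00908, 0.00248, 0.00621 and 0.0127), and the day 60 call was lost in 3 of 12 fits that leave out 1 library. Lrp2, the megalin receptor, did not exceed 0.45 CPM in any library. Slc40a1, the exporter that works with ceruloplasmin, did not pass against sham or day 7 at any time, with 248 and 86.6 CPM at day 1 and 43.8 and 75.0 CPM at day 60, against 63.3 and 65.9 CPM in sham. Hmox1, which frees iron from heme, had means of 3.83 CPM in sham, 738 CPM at day 1, 281 CPM at day 3, 106 CPM at day 7, 65.7 CPM at day 21 and 54.6 CPM at day 60. Its early difference from day 7 was 2.11 ± 0.30 log2 units (edgeR adjusted p = 0.00182), and all 12 fits that leave out 1 library kept the Hmox1 call.

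Of 12 cytokine genes tested that induce acute-phase proteins, 9, 8, 8, 6 and 5 were called higher than sham on days 1, 3, 7, 21 and 60, and 0 lower, beside 16.7% to 23.2% of all genes called higher at these times. Without sham replicate 1 the counts were 6 on day 1, 4 on day 7 and 3 on day 60. Il6, the main inducer in the liver, was above sham at all 5 times, by 9.31, 8.17, 6.67, 7.94 and 8.14 log2 units (edgeR adjusted p of 0.00149 to 0.00190). Its means were 0.10 CPM in sham and 36.5, 16.7, 5.86, 14.1 and 16.3 CPM from day 1 to day 60, lowest at day 7 among the times after stroke. Neither of its differences from day 7 passed (2.07 ± 0.81 early and 1.37 ± 0.78 late, edgeR adjusted p = 0.104 and 0.378 for Il6).

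Il11, a cytokine of the interleukin 6 family, had means of 874 CPM at day 1 and 8.22 CPM at day 3, then at most 1.04 CPM. Its early difference from day 7 was 6.31 ± 1.28 (edgeR adjusted p = 0.00942) and its difference between days 3 and 1 was -6.75 ± 1.33 (0.0228), lost in 2 of 12 fits each for Il11. Lif, of the same family, had a mean of 66.7 CPM at day 1, against 1.05 CPM in sham (5.94 ± 1.21, edgeR adjusted p = 0.00658, and 0.0525 without sham replicate 1). Il1b was higher than day 7 in the early wave by 2.31 ± 0.61 (edgeR adjusted p = 0.0286, and 0.198 without day 7 replicate 2), and not in the late wave by the test (0.66 ± 0.56). Ctf1 was 2.06 lower in the early wave than at day 7 (edgeR adjusted p = 0.0291).

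Receptors for these cytokines were called higher than sham in 10, 11, 11, 12 and 10 of 17 genes on days 1, 3, 7, 21 and 60, beside 16.7% to 23.2% of all genes, and 1 was called lower at day 60. Without sham replicate 1 the counts were 5 on day 1, 6 on day 3 and 8 on day 21. In edgeR only Il1r2, the decoy receptor, was called higher than day 7 in the late wave, where 1.71% of all genes were, by 3.27 ± 0.79 log2 units (edgeR adjusted p = 0.0457, lost in 10 of 12 fits that leave out 1 library). In the early wave 2 receptors were called higher and 3 lower, where 7.19% and 10.3% of all genes were. Il1r2 was 4.02 ± 0.83 log2 units higher (edgeR adjusted p = 0.00999, and 0.0865 without day 7 replicate 1). The replicate block called 2 receptors higher in the late wave and 7 lower in the early wave. Of 15635 genes it called 848 higher late and 2566 lower early. The 3 receptors lower early in edgeR without the block were Il11ra1 (-1.72), Il1r1 (-1.35) and Ifngr2 (-0.80). Osmr, the oncostatin M receptor, was above sham throughout, by 3.99, 3.23, 4.58, 5.14 and 3.90 log2 units.

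Transcription factors and inhibitors that act on acute-phase genes were mostly above sham at every time, day 7 included. Of 22, edgeR called 18, 19, 19, 20 and 19 higher than sham on days 1, 3, 7, 21 and 60, beside 16.7% to 23.2% of all genes, with medians of 2.37, 2.82, 3.29, 3.01 and 3.02. The count was 12 at days 1 and 3 without sham replicate 1. Against day 7 edgeR called 0 higher in either wave, 4 lower in the early wave (10.3% of all genes), among them Socs1, Cebpa and Ikbke, and 1, Socs1, in the late wave (2.94%). The replicate block called 3 higher in the early wave, where it called 2133 of 15635 genes higher, so nothing is read from the 3. Some fits that leave out 1 library also called factors higher there. Cebpb, a C/EBP factor, had means of 45.1 CPM in sham and 654, 1075, 950, 1462 and 1758 CPM from day 1 to day 60. Cebpd, another, had means of 15.8 CPM in sham and 621, 254, 284, 465 and 558 CPM from day 1 to day 60, with the wave differences not passing (0.48 ± 0.57 early and 0.84 ± 0.58 late for Cebpd). Socs3, an inhibitor of STAT3 signalling, differed from sham by 5.40, 5.14, 5.29, 4.73 and 4.78 log2 units, all passing in edgeR. At day 7 Cebpb was 4.40 ± 0.42 and Cebpd 4.17 ± 0.73 log2 units above sham (edgeR adjusted p = 7.6e-05 and 0.00144). Both genes were chosen after their values were seen, and any link of their levels to those of the members was not tested.

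Of 10 receptors and lipoprotein partners of serum amyloid A, 5 were called higher than sham at each of the 5 times, beside 16.7% to 23.2% of all genes. Tlr2 and Tlr4, innate receptors, were among them, with means of 112 CPM and 21.2 CPM at day 7, against 2.64 CPM and 1.53 CPM in sham. Against day 7, Tlr2 (-1.47 ± 0.44) and Cd36, a scavenger receptor (-2.36 ± 0.48), were lower in the early wave (edgeR adjusted p = 0.0457 and 0.00973, lost in 10 and 2 of 12 fits), and Cd36 in the late wave (-2.59 ± 0.48, 0.0185, and 0.126 without day 7 replicate 1). Both were higher at day 3 than at day 1, Tlr2 by 2.91 ± 0.57 (edgeR adjusted p = 0.0220) and Cd36 by 2.74 ± 0.62 (0.0408), the calls being lost in 3 and 9 of 12 fits. Fpr2, a formyl peptide receptor that binds serum amyloid A, did not exceed a mean of 0.26 CPM in any group.

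Markers of other cells also changed between the groups, in the direction of the members or against it. Their part in the results was not tested beyond the values given. Between days 3 and 1, when Tlr2 and Cd36 were higher, 8 of 10 microglial markers were higher as well, where 3.09% of all genes were, and the sums of the 10 were 2520 and 2811 CPM at day 3, against 280 and 306 CPM at day 1. Without day 1 replicate 1 only 2 of the 10 were called. In the late wave 7 of 10 microglial and 3 of 10 macrophage markers were lower than at day 7, where 2.94% of all genes were, and without day 7 replicate 1 the counts were 1 and 1. Of the 12 fibroblast markers, 10 were lower than day 7 in the early wave (10.3% of all genes). In the late wave 5 were lower, with a median of -2.27 log2 units over the 12, and 1 was higher, Dcn, by 2.04 ± 0.46 log2 units (edgeR adjusted p = 0.0353, lost in 8 of 12 fits). Dcn, decorin, had means of 11.2 CPM in sham, 838 CPM at day 1, 2474 CPM at day 3, 1914 CPM at day 7, 7456 CPM at day 21 and 8255 CPM at day 60. Dcn was singled out after its values were seen, and the list as a whole went the other way. The 10 endothelial markers were highest at day 1, with sums of 7387 and 5702 CPM, against 1502 and 2928 CPM in sham. Their sums were 3884 and 1067 CPM at day 3, and 671 and 984 CPM at day 7. Of the 10, 5 were higher than sham at day 1 (16.7% of all genes). In the early wave 3 were higher than day 7 (7.19%), and 0 in the late wave (1.71%). The part of this shift in the early level of Serpina3n was not tested. Of 13 astrocyte markers, 8 were higher than day 7 in the early wave (7.19% of all genes) and 2 in the late wave (1.71%), and 0 lower. Of 10 neuronal markers 6 were higher than day 7 in the early wave and 4 in the late wave, with sums of 8849 to 11842 CPM in sham, 443 to 1706 CPM early, 229 to 317 CPM at day 7 and 1110 to 1305 CPM late. Without day 7 replicate 2 the counts called higher in the early wave were 0 for astrocytes and 2 for neurons. Elane, a neutrophil elastase, was at 80.0 CPM in day 21 replicate 2, at 0.336 CPM in replicate 1 and at 0 counts in sham, day 1, day 3 and day 7.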

How the data were processed

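The deposited values are raw counts per gene symbol that the authors made, in 1 file for each library and 1 table of the series, which were equal in 189288 of 189288 values. Per the submitters' processing notes, reads were aligned with Bowtie2 2.3.4.2 and counted with HTSeq 0.6.1 on mm10. The annotation, the strand setting and how reads with several matching genes were treated are not given in the sources used here.

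The members and the gene lists were chosen with earlier results of these data known. The tests used edgeR 4.0.16 in R 4.3.3 (TMM factors of 0.689 to 1.22, filterByExpr with a minimum count of 10, 15635 genes kept, all 6 members among them). One quasi-likelihood fit with a mean for each group took in all 12 libraries. It had 6 residual degrees of freedom, and its median biological coefficient of variation was 0.408. The SE of a log2 difference is its absolute value divided by the square root of its F statistic. It thus rests on a spread estimated over all 12 libraries. A gene was called at a Benjamini-Hochberg adjusted p under 0.05 over all genes of a comparison, and "higher" and "lower" refer to that. The script was tested on simulated data. A floor of 3 counts per library stood for libraries at 0, and floors cover counting error only. Replicate 2 was 6.30 to 9.63 times as deep as replicate 1, so low levels are less precise in replicate 1.

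Same-numbered libraries deviated together, as shown by correlations between groups of 0.319 to 0.713 (15 of 15 pairs over the limit of 0.1). The labels do not say what the number marks. The replicate block was run as an alternative, with DESeq2 1.42.0, its size factors, no filter and each library left out in turn. Scaling by size factors lowers the all-gene median at day 1 to -0.03, against 0.06 with TMM (log2 difference from sham), and alike at the other times.

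Genes named are the members, for each member the 3 genes of nearest pattern (prior count 2, at least 10 CPM in a group), the 8 leading genes higher in both waves, up to 5 genes of each list by wave difference, defining markers at 0, the 2 most abundant markers of a list, and known partners and paralogs. Genes outside this rule were chosen after their values were seen. They include Trf, Tfrc and Fth1 among iron genes, Lrg1, Ptx3, Cfb, Lbp and Agt among acute-phase genes, and Osmr, Socs3, Cebpb, Cebpd, Tlr4, Fpr2, Ifngr2 and Dcn. Adm, Coch, Entpd3, Fas, Nqo1 and Ptgds, from the genes higher in both waves, are also outside it. Single values of some list genes are not reported here.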

Additional observations from a re-analysis of the deposited data

Results flagged for a closer look

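Between the 2 times of the early wave the rise of Lcn2 over sham differed by -2.18 log2 units (day 3 minus day 1), which passed the edgeR quasi-likelihood test of that difference with an adjusted p of 0.0255. Lcn2 was at 45.4 and 90.7 CPM at day 3, against 284 and 331 CPM at day 1, and both day 3 libraries lay below both day 1 libraries. How many of all genes had this order was not counted, so nothing is read from it. The call is not firm, since it was lost once either of the day 1 libraries, or the shallower day 3 library, was dropped. In those fits the log2 difference of Lcn2 lay between -2.29 and -1.72, so its direction stayed the same.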

How the results depend on the processing

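Of the alternative values of the members' log2 differences, 905 kept their side of the threshold or lay within 1 SE, 22 moved further, 5 became stronger, 3 weaker and 9 changed sign in a comparison within a wave, none of them called. Between days 3 and 1, Steap4 was 0.014 with the replicate block, and without 1 library it ranged over -0.51 to 0.49 (highest without day 1 replicate 1), Cp over -0.14 to 1.24 (lowest without day 3 replicate 2) and Serpina3n over -1.64 to 0.42 (highest without day 3 replicate 1). Between days 60 and 21, Lcn2 ranged over -0.56 to 0.084 (highest without day 21 replicate 2) and Cp over -0.73 to 0.38 (highest without day 60 replicate 1). Against sham, where no test is given, Serpina3n lay on either side of 0 at days 7 and 60. Counts of called genes moved more. DESeq2 called 4241 genes in the early wave against day 7 (main count 2731), 2100 in the late wave (726), 1426 between days 3 and 1 (558), 115 between days 60 and 21 (0) and 724 higher in both waves (151). In the late wave 1213 of these were higher and 887 lower, against 267 and 459 in edgeR, and in the early wave 2215 and 2026, against 1124 and 1607. The replicate block called 4699, 1894, 1313, 21 and 489 genes in the same order, and the causes were not tested. The counts against sham stayed within 1.5 times under DESeq2, its size factors, no filter and the block, and without 1 library they ranged over 1954 to 5037 at day 1, 2941 to 5315 at day 3, 4476 to 6949 at day 7, 2628 to 5593 at day 21 and 2654 to 5317 at day 60. The other counts without 1 library ranged over 807 to 2885 (early wave, lowest without day 7 replicate 1), 65 to 1182 (late wave, lowest without day 7 replicate 1), 239 to 557 (day 3 against day 1), 0 to 2 (day 60 against day 21) and 4 to 393 (both waves, lowest without day 7 replicate 2). With size factors the day 1 calls split 2368 higher and 2389 lower, against 2606 and 2168. Differences from day 7 rest on 2 libraries of unequal depth, and levels of Saa4, Saa1 and Saa2 on few counts in replicate 1.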

Other observations

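Ttr, the leading choroid plexus marker, had means of 456 CPM in sham, 155 CPM at day 7, 1254 CPM at day 21 and 23.8 CPM at day 60. The 10 choroid plexus and ependyma markers summed to 1248 and 1607 CPM at day 21 and 47.3 and 36.0 CPM at day 60. The late levels of Lcn2 were 1728 ± 543 CPM at day 21 and 1426 ± 102 CPM at day 60 (SD, n = 2 each). The part of choroid plexus cells in the Lcn2 levels was not tested. Il31ra, a subunit of the interleukin 31 receptor and one of the 3 non-member genes nearest to Lcn2 (a place A2m took under both other settings), had no count in sham and was at 2.50 and 1.52 CPM at day 1, 0 and 0.164 CPM at day 3, 0.470 and 0.856 CPM at day 7, 14.5 and 10.4 CPM at day 21, and 6.70 and 15.8 CPM at day 60. Rps6ka3, a ribosomal S6 kinase gene and the nearest in pattern to Serpina3n, was at 3.23 and 4.90 CPM in sham, 35.8 and 27.7 CPM at day 1, 16.8 and 13.5 CPM at day 3, and 4.43 and 8.98 CPM at day 7.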
